A study of Mus musculus with 2 samples.

Results

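Expression of the nucleosome remodelling and deacetylase (NuRD) complex and of the CHD family of chromatin remodellers was examined in WT and *Cxxc1*-deficient DP thymocytes. The set held 10 genes chosen by name: the ATPases *Chd1*, *Chd2*, *Chd3* and *Chd4* and the NuRD subunits *Mta1*, *Mta2*, *Mbd2*, *Mbd3*, *Rbbp4* and *Gatad2b*. All 10 were present among the 21041 genes of the deposited RNA-seq table. DP thymocytes are the CD4 and CD8 double-positive precursors of T cells that make up most of the thymus. They were taken from WT mice, which carried *Cxxc1* fl/fl without Cre, and from *Cxxc1*-deficient mice, which carried *Cxxc1* fl/fl together with the h*CD2*-Cre transgene, with 1 library of each genotype. Both genotypes therefore carried the floxed allele, and Cre was driven by a human *CD2* transgene that is active from early thymocytes onwards and in other lymphocytes. The genotype label of the deficient sample reads *Cxxc1*+/-, which does not match this description, so the library was grouped by its title. The mice used in the study were a few weeks old, and the sources used here do not say how many animals gave each library.

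NuRD couples nucleosome remodelling by a CHD ATPase with histone deacetylation by Hdac1 and Hdac2. Its MTA subunits form the scaffold that holds the deacetylases, Mbd2 or Mbd3 tie the complex to methylated or unmethylated CpG-rich DNA, the GATAD2 proteins link the MBD subunit to the ATPase, and Rbbp4 and Rbbp7 bind histones. In thymocytes Chd4, also called Mi-2β, is known to act at the *Cd4* gene, and Chd1 can bind H3K4me3, the histone mark that the Setd1 complex places with the help of the CpG-binding protein Cxxc1.

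Since each genotype has 1 library, the differences lack a replicate check and come without p-values. The values are a normalized expression score, and they behaved as reads per transcript length, so that levels of different genes can be set side by side on this scale. Ratios of *Cxxc1*-deficient to WT were taken with each value raised to at least 1. All intervals are 95% intervals from approximate reads, which cover counting error only and say nothing of the spread between mice. They are Clopper-Pearson intervals for ratios to WT, Poisson intervals for levels and conditional exact intervals for changes in the ratio of a gene pair. The targeted gene *Cxxc1* had a level of 91 in the WT and 50 in the deficient library, 1.82-fold lower with an interval from 1.14 to 2.96, and it turned higher under the scaling to an equal median of genes with a mean of at least 100. The deficient value of 50 lay under 57, the 95th percentile there of the olfactory receptor genes, which thymocytes do not use. It is thus not clear of background. By quantitative PCR, the paper found *Cxxc1* mRNA almost undetectable in deficient DP cells, and it reports loss of the protein. Cre removes only some exons of the gene, and these values do not separate deleted from retained exons. How complete the deletion was in this library was not tested. All 11 markers of DP thymocytes were lower in the deficient library, 9 of them by at least 2-fold and so lower under every scaling used here, with a sum of 38918 in the WT and 10395 in the deficient library. They included the co-receptor genes *Cd4*, with 2728 and 1257, and *Cd8a*, with 3503 and 507. Most of the 11 markers had a mean of at least 500. In that range 96.3% of all genes were lower and 84.1% at least 2-fold lower, so the marker counts are near those of other genes of their level. Marker lists of B cells, myeloid cells, erythroid cells, thymic epithelium and stroma, and NK and innate cells summed to between 134 and 352 in the WT and between 151 and 336 in the deficient library. Of these 39 genes, 1 lay above the 95th percentile of the olfactory receptor genes in both libraries, namely the myeloid gene *Itgam* with 101 and 107. Above it in 1 library only were the B-cell gene *Cd79b* in WT (74 and 43) and the erythroid gene *Klf1* in the deficient library (29 and 64). The defining genes *Csf1r* (myeloid), *Epcam* (epithelium) and *Ncr1* (NK) had values from 14 to 35 over both libraries, under that percentile. The Y-linked genes *Eif2s3y*, *Kdm5d*, *Ddx3y* and *Uty*, chosen after their values were seen, were listed at 0 in WT and at 67, 39, 31 and 17 in *Cxxc1*-deficient cells, and *Xist*, which marks the inactive X chromosome, had 2419 and 1021. The deficient library thus listed both Y-linked genes and *Xist*, and the WT library listed *Xist* alone. Whether the deficient library held cells of animals of both sexes was not tested. The effects of sex and genotype cannot be told apart here, and none of the 10 genes lies on a sex chromosome. In bulk RNA, fewer cells of a type and less RNA per cell cannot be told apart either.

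Because Cxxc1 binds unmethylated CpG, the promoters of the members were counted for the dinucleotide CG, whose letters read the same on both strands. RefSeq promoter entries on GRCm38.p6, which run from 250 bases before to 50 bases after a transcription start, were available for 6 of the 10 members, *Chd4*, *Mta1*, *Mta2*, *Mbd3*, *Rbbp4* and *Gatad2b*. Of these, *Chd4* had the lowest ratio and *Gatad2b* the highest, and their promoters are printed for that reason, with each CG in capitals. The *Chd4* window is chr6:125095913-125096212 and the *Gatad2b* window is chr3:90292931-90293230, both on the plus strand.
Chd4: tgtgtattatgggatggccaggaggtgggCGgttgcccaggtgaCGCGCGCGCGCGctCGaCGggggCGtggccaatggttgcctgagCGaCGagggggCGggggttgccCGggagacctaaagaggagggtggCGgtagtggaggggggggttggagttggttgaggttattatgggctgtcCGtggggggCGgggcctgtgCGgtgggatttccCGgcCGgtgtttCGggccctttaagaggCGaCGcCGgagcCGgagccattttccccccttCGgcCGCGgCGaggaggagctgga
Gatad2b: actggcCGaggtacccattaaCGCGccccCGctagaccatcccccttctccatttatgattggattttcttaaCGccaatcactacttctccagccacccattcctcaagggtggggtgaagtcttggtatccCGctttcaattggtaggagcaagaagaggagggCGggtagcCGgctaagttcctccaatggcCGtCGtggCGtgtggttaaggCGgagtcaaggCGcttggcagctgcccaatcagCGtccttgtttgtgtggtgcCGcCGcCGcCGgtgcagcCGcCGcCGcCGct
The *Chd4* window holds 29 CG and the *Gatad2b* window 22, whereas the median over all 32851 promoter entries was 7. Of all entries, 12.9% held at least 29 and 23.1% held at least 22. A further start of *Chd4* had 17 CG and a further start of *Gatad2b* had 16. The counts were 50 for *Mta1*, 39 for *Rbbp4*, 30 for *Mta2* and 22 for *Mbd3*, and all 6 genes thus lay above the median in every window listed. These counts describe the letters of the windows and were not set against any binding data.

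Of the 10 genes, 9 were lower in the *Cxxc1*-deficient than in the WT library and 1, *Chd3*, was higher. Of all genes, 59.9% were lower. In the ranges of mean expression from 50 upwards, where all members lay, 82.6% to 96.3% of genes were lower, so the count of 9 is near the background. The summed value of the 10 was 3316 in the WT and 1278 in the deficient library. A total of 6 genes were at least 2-fold lower, against 17.4% of all 20125 genes detected (above 0) in either library, and 3 were lower by less than 2-fold. None was at least 2-fold higher, against 5.89% of all genes and 0% to 0.66% of genes in the ranges that held members. The median log2 ratio of the 10 was -1.16, or 2.24-fold lower, and that of all genes was -0.20. Intervals of 8 of the 10 ratios lay below 1, and 7 did so when reads were counted on the shortest coding transcript of each gene, where the interval of *Rbbp4* includes 1. These directions refer to the deposited values, and *Mta1*, *Mbd3* and *Gatad2b* turned to slightly higher values when the libraries were given an equal median across the genes whose mean was 100 or more.

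**Figure D1:**
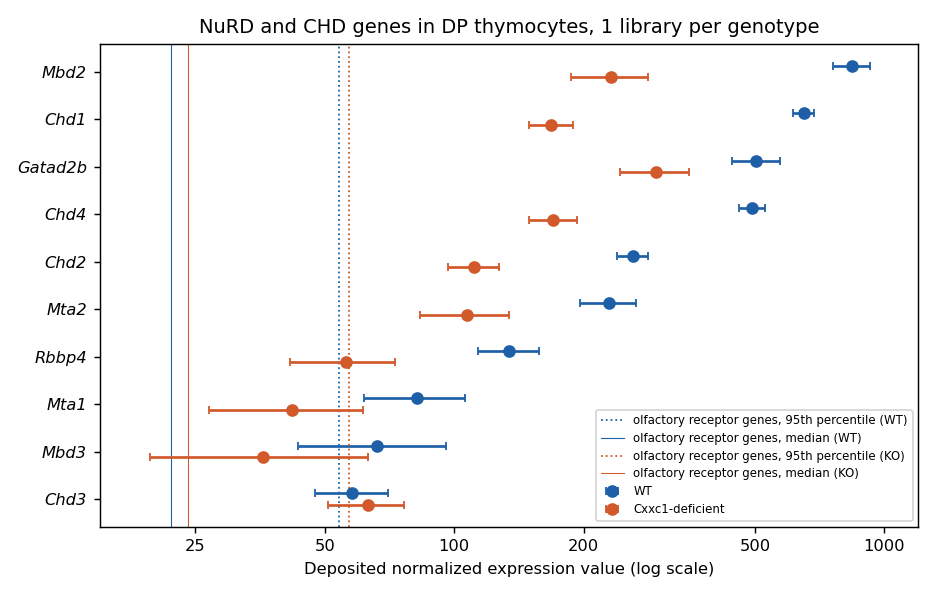
Deposited expression value (log scale) of the 10 genes in the WT and *Cxxc1*-deficient library, with 1 point per library and 95% counting intervals as bars, and vertical lines at the median (solid) and 95th percentile (dotted) of 1102 olfactory receptor genes in each library. *Chd3* is the only gene of the 10 with a higher value in *Cxxc1*-deficient cells (58 in WT and 63), and *Mbd2* has the highest WT value, 840, whereas *Gatad2b* has the highest *Cxxc1*-deficient value, 294.

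The ATPase of NuRD was represented mainly by *Chd4*. *Chd4*, on chromosome 6 from 125045999 to 125080609 (all positions of genes are on mm9 with GENCODE vM1 annotation), had a value of 493 in the WT and 170 in the deficient library, from approximately 815 and 242 reads. It was 2.90-fold lower, with an interval from 2.51 to 3.36. *Chd3*, the alternative ATPase Mi-2α, on chromosome 11 from 69156775 to 69182928, had 58 and 63, a ratio of 1.09 with an interval from 0.813 to 1.44, so that no difference was detectable at this depth. The 2 libraries overlap within counting error for *Chd3* and do not for *Chd4*. *Chd3* nevertheless stayed close to the level of silent genes, as 2.72% of the olfactory receptor genes had a value at least as high in WT.

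The set also held a pair of CHD remodellers that are not NuRD subunits. *Chd1*, which assembles nucleosomes and binds H3K4me3, lies on chromosome 17 from 15841931 to 15909574 and had 650 in the WT and 168 in the deficient library. This was 3.87-fold lower (3.39 to 4.41), the lowest ratio of the 10 genes, from approximately 1270 and 283 reads. *Chd2*, a closely related remodeller, lies on chromosome 7 from 80571577 to 80686632 and had 260 and 111, 2.34-fold lower (2.0 to 2.76). The interval of *Chd1* did not overlap that of *Chd2*, but with the shortest coding transcripts, which stand for fewer reads, the ratios to WT ran from 0.195 to 0.340 for *Chd1* and from 0.187 to 0.842 for *Chd2* and overlapped.

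Among the methyl-CpG-binding subunits, *Mbd2* gave the highest WT value of the set. *Mbd2*, on chromosome 18 from 70727843 to 70785785, had 840 in the WT and 231 in the deficient library, 3.64-fold lower (2.90 to 4.59). It is also on the study's list of Cxxc1-bound genes chosen by their change in these libraries, which is not independent evidence of its direction. *Mbd3*, on chromosome 10 from 79855284 to 79862295, had 66 and 36, from approximately 27 and 13 reads. Its 1.83-fold lower value had an interval from 0.892 to 3.78, which includes equal levels, and it was 3.67-fold lower with the olfactory receptor median subtracted.

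Of the scaffold subunits, *Mta1* and *Mta2* are members. *Mta2*, on chromosome 19 from 9016365 to 9026793, had 229 in the WT and 107 in the deficient library, 2.14-fold lower (1.62 to 2.87). *Mta1*, on chromosome 12 from 114336489 to 114375417, had 82 and 42, 1.95-fold lower (1.21 to 3.28). Each interval holds the fold of the other gene. With the olfactory receptor median subtracted, *Mta1* was 3.33-fold lower, and it turned slightly higher under the scaling named above. The histone-binding subunit *Rbbp4*, on chromosome 4 from 128984344 to 129012614, had 134 and 56, 2.39-fold lower (1.75 to 3.39) and 3.50-fold lower with the subtraction. *Gatad2b*, which encodes the p66β subunit and lies on chromosome 3 from 90145576 to 90162042, had 504 and 294, 1.71-fold lower (1.37 to 2.16), the smallest reduction among the 6 members whose mean reached 100.

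Put in order of level, *Mbd2* and then *Chd1* came first in WT with separate intervals, followed by *Gatad2b* and *Chd4*, whose intervals overlap, then *Chd2* and *Mta2*, which also overlap, then *Rbbp4* and, without separation from each other, *Mta1*, *Mbd3* and *Chd3*. In *Cxxc1*-deficient cells *Gatad2b*, *Mbd2*, *Chd4* and *Chd1* came first with overlapping intervals between neighbours, *Chd2* and *Mta2* followed, and *Chd3*, *Rbbp4*, *Mta1* and *Mbd3* were lowest. With the shortest coding transcripts, the neighbours in order that remained apart were *Chd1* from *Gatad2b* and *Chd4* from *Chd2* in WT, and none in the deficient library. The span from lowest to highest was 14.5-fold in WT and 8.17-fold in the deficient library, but 22.7-fold and 22.5-fold with the olfactory receptor median subtracted. All 10 genes lay above the 95th percentile of the olfactory receptor genes in WT (53.9) and 7 did so in *Cxxc1*-deficient cells (57), where *Mta1*, *Mbd3* and *Rbbp4* lay below it. The olfactory receptor genes, which thymocytes do not use, had a median of 22 in the WT and 24 in the deficient library, a background that the lowest members approach.

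The ratio depended on the level of a gene in these libraries. The median log2 ratio was 0 for genes with a mean under 50, -0.53 from 50 to 100, -1.0 from 100 to 200, -1.22 from 200 to 500 and -1.61 at or above 500. Of the 4 members with a mean of 50 to under 100, 1 was at least 2-fold lower, against 20.0% of genes in that range. Both members from 100 to 200 were, against 50.1%, and 2 of the 3 members from 200 to 500 were, against 65.9%. *Mbd2*, the 1 member at or above 500, was at least 2-fold lower in a range where 84.1% of genes were. Read against genes of their own level, the counts of the members were therefore close to the background. By single genes, 8 lay below the median of their range and 2, *Chd3* and *Gatad2b*, lay above it. *Chd1* had a log2 ratio of -0.74 relative to the median of its range, and 9.67% of genes in that range had a ratio at least as low. *Rbbp4* was at -0.72 with 10.2%, *Chd4* at -0.32 with 26.6% and *Mbd2* at -0.25 with 34.8%. *Mta1* was at -0.43 with 21.3%, *Mbd3* at -0.34 with 26.3%, *Chd2* at -0.23 with 31.9% and *Mta2* at -0.10 with 41.1%. In contrast, *Gatad2b* was at 0.44 with 80.2% and *Chd3* at 0.65 with 87.9%, so most genes of their level had lower ratios.

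**Figure D2:**
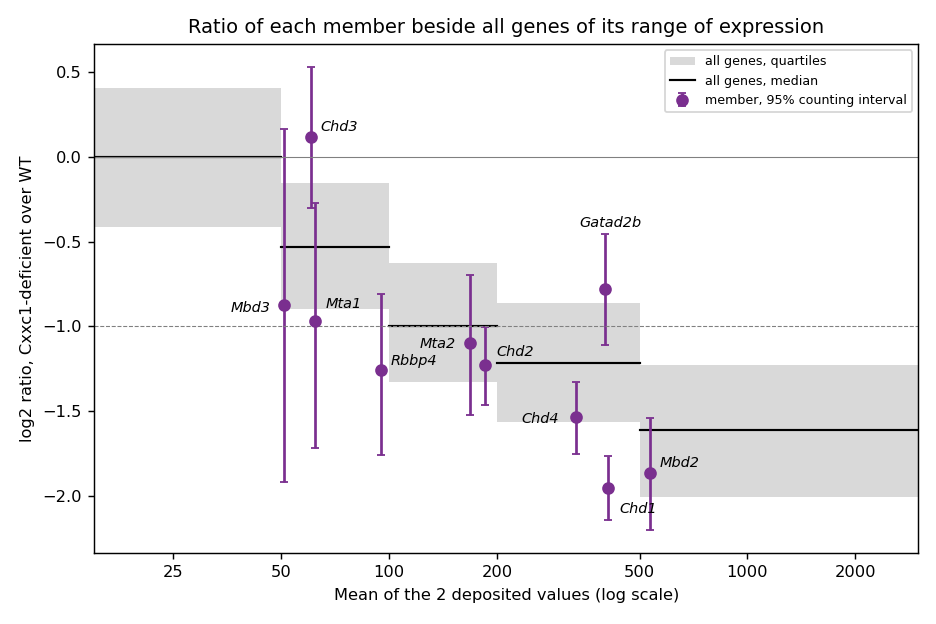
Log2 ratio of *Cxxc1*-deficient to WT for the 10 genes (points, with 95% counting intervals) against the mean of both deposited values on a log axis, with the median (line) and quartiles (grey) of all genes in each range of mean. *Chd1*, *Rbbp4* and *Mta1* lie under the quartiles of their ranges and *Chd3* and *Gatad2b* lie above them, on the deposited scale. Under the scaling to the same median of genes with a mean of at least 100, *Gatad2b*, *Mta1* and *Mbd3* turn positive.

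Within a pair of alternative subunits, the share of each paralog is free of the scaling of a library. *Chd3* made up 10.5% of the summed value of *Chd3* and *Chd4* in the WT and 27.0% in the deficient library, a change in their ratio of 3.15-fold (conditional exact interval from 2.27 to 4.34). *Chd1* made up 71.4% of *Chd1* and *Chd2* in the WT and 60.2% in the deficient library, with a change in ratio of 0.605 (0.493 to 0.748). In both pairs the more abundant paralog of WT had a smaller share in the deficient library. Both intervals exclude 1 with the longest coding transcripts, whereas with the shortest they run from 0.819 to 13.6 and from 0.290 to 1.46 and include it, so neither change is clear of counting error under both lengths. By level, the median log2 ratio of all genes was -0.53 in the range of *Chd3* and -1.22 in that of *Chd4*. It was -1.0 in the range of *Chd2* and -1.22 in that of *Chd1*. Both shares changed in the direction of this trend, and whether they changed beyond it was not tested. The share of *Mbd2* among *Mbd2* and *Mbd3* was 92.7% and 86.5%, and its interval of 0.235 to 1.08 includes 1. *Mta1* held 26.4% and 28.2% of the MTA pair, and *Gatad2a* held 17.4% and 17.2% of the GATAD2 pair, with ratios of 1.10 (0.605 to 1.94) and 0.987 (0.679 to 1.46). The intervals leave room for changes of either direction in these pairs. A background shared by all genes is not a scaling and does move a share. With the olfactory receptor median subtracted, *Chd3* made up 7.10% and 21.1% of its pair, *Mbd2* made up 94.9% and 94.5%, and the change in the ratio of *Mta1* to *Mta2* turned to -0.42 on the log2 scale. *Rbbp4* held 69.4% and 74.7% beside *Rbbp7*, and the deacetylase *Hdac1* held 12% and 11.9% beside *Hdac2*. The last 2 pairs are uncertain, because only 77.2% of the 50-base windows in the exons of *Rbbp7* and 29.8% of those of *Hdac1* occur once in the genome, against 99.0% of those of *Rbbp4*, 99.2% of those of *Chd4* and 100% of those of the other 8 members, and the authors kept uniquely mapped reads.

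**Figure D3:**
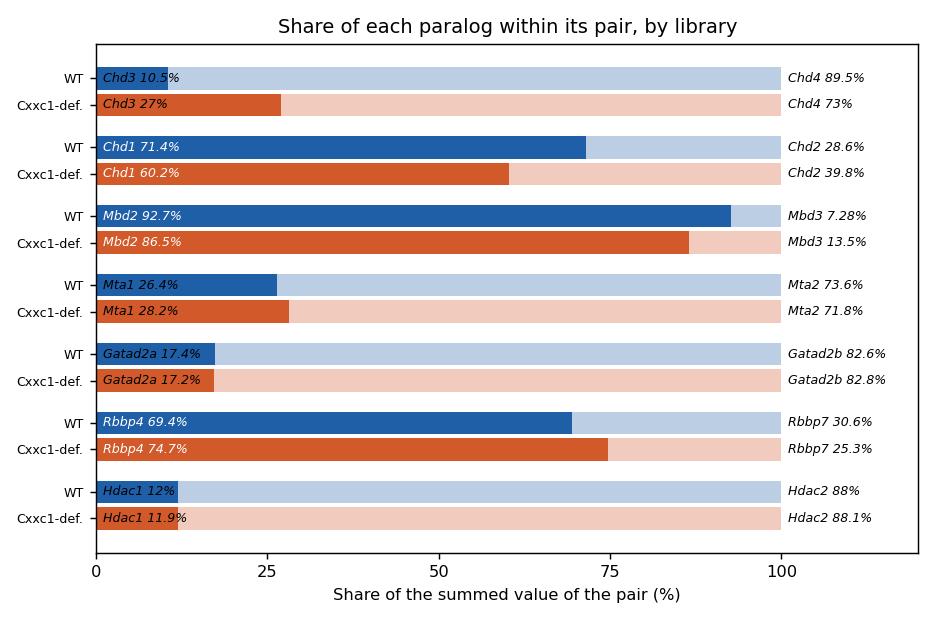
Share (%) of each paralog in the summed deposited value of its pair, with 1 bar per library, dark for the first gene and pale for the second. *Chd3* goes from 10.5% to 27.0% of its pair and *Chd1* from 71.4% to 60.2%, whereas the GATAD2 pair has 17.4% and 17.2% for *Gatad2a*.

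The members were also set against *Chd4*, the main ATPase of the complex, as ratios that no scaling can move. The ratio of *Chd1* to *Chd4* changed by 0.750 (0.616 to 0.915), an interval that widens to 0.443 to 1.30 with the shortest coding transcripts and then includes 1. The ratio of *Gatad2b* to *Chd4* changed by 1.69 (1.29 to 2.22), and its interval stayed above 1 with the shortest transcripts (1.02 to 2.86). The intervals of *Chd2* (0.994 to 1.54), *Mta1* (0.864 to 2.46), *Mta2* (0.975 to 1.86), *Mbd2* (0.606 to 1.05), *Mbd3* (0.755 to 3.31) and *Rbbp4* (0.830 to 1.71) included 1. For these 6 genes a change in proportion to *Chd4* was not detectable at this depth.

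A scaling of the libraries moves all genes by 1 factor. The shifts of the median of all genes were 0.04 for the same median, 0.39 for the same 75th percentile, 0.56 for an equal sum when the 100 highest genes were left out and 1.00 for the same median of genes with a mean of at least 100. Because the factor is common to all genes, it leaves the members where they were relative to the median of all genes, with 9 of 10 below it and their median at -0.96 from it. The number at least 2-fold lower was 6, 3, 2 and 0 in that order, and 8 with the olfactory receptor median subtracted. *Chd1*, with the lowest ratio, had log2 ratios from -1.91 to -0.96 over these scalings, and *Chd3*, with the highest, from 0.16 to 1.12.

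**Figure D4:**
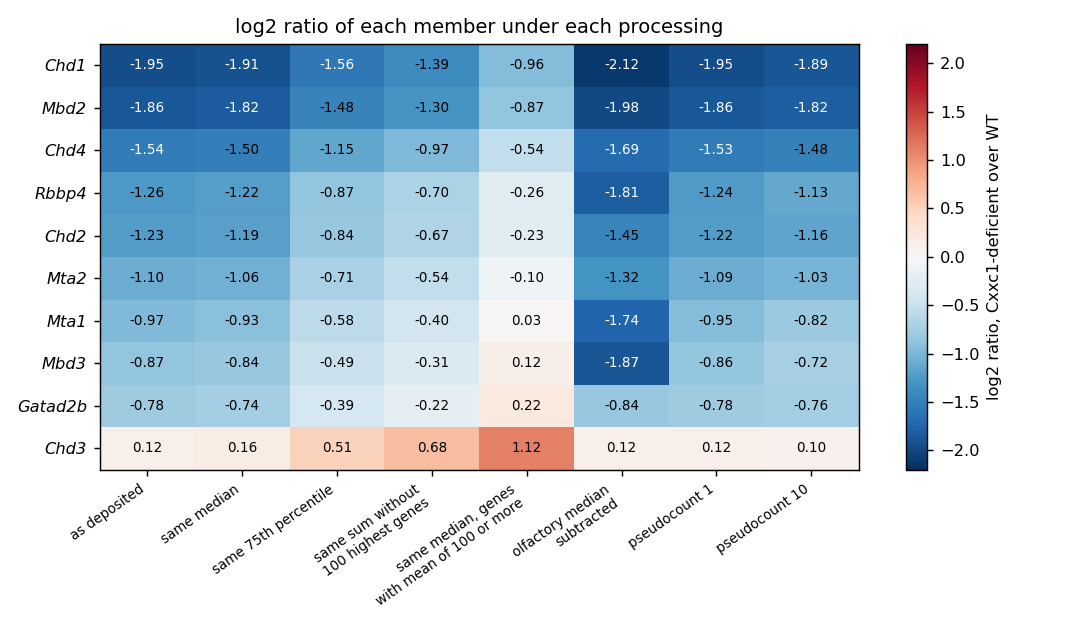
Heat map of the log2 ratio of *Cxxc1*-deficient to WT, printed in each cell and coloured blue for lower and red for higher, for the 10 genes (rows) on the deposited scale and under 7 alternatives (columns). *Chd1* is lowest and *Chd3* highest in each of the settings shown, whereas *Mta1*, *Mbd3* and *Gatad2b* turn from negative to positive (0.031, 0.12 and 0.22) under the same median of genes with a mean of at least 100.

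Other genes of the pathway were described with the same measures. Of the 6 other NuRD subunits, *Cdk2ap1* was listed at 0 in both libraries, where 10.1% of its 50-base windows occur once in the genome, 4 were lower and 1 was higher. At least 2-fold lower were 3, against 17.4% of all genes, but *Hdac1* (53 and 12) and *Rbbp7* (59 and 19) among them had deficient values under the olfactory receptor median and are uncertain in mapping. The median log2 ratio of the list, -1.63, is that of *Rbbp7*, and it ranged from -2.50 with the olfactory receptor median subtracted to -0.64 under the scaling to genes with a mean of at least 100. The deacetylase *Hdac2* had 389 in the WT and 89 in the deficient library, 4.37-fold lower (3.29 to 5.79). *Mta3*, the third MTA subunit, had 104 and 167, a ratio of 1.61 (1.29 to 2.01), and 99.1% of genes in its range had a ratio at least as low. The value of *Mta3* was thus higher, with an interval above 1, while *Mta1* and *Mta2* had lower values on the deposited scale. Of 6 other CHD genes 4 were lower and 2 at least 2-fold lower, with a median of -0.49. Of these 2, *Chd1l* (50 and 19) had a deficient value under the olfactory receptor median. Among the other CHD genes with a mean of at least 50, the ratio ran from *Chd8* (236 and 114) to *Chd9* (155 and 119). Of 5 other MBD genes 3 were lower, with a median of -0.07, and *Mbd4*, a DNA glycosylase, had 55 and 60. The medians of these 2 lists turned positive under some scalings. Of all genes, 59.9% were lower. By level, 1 of 3 other CHD genes with a mean under 50 was lower, against 47.8% of all genes there. From 100 to 200, 3 of 3 were, against 94.7%. Of the MBD genes, 2 of 3 from 50 to 100 were lower, against 82.6%, and 1 of 2 from 100 to 200, against 94.7%. None of the 5 was at least 2-fold lower, against 20.0% and 50.1% in these ranges. The counts of lower genes are thus near the background for the CHD list and under it for the MBD list, which holds few genes. Of 13 factors known to recruit or bind NuRD 11 were lower. In the ranges of mean from 50 upwards, 82.6% to 96.3% of all genes were lower. Of the 13 factors, 5 were at least 2-fold lower. These were all 4 with a mean of at least 500, where 84.1% of all genes were, 1 of 2 from 200 to 500, where 65.9% were, and 0 of 4 from 100 to 200, where 50.1% were, so the count is near that of other genes of their level. The median of the list was -0.80, and that median turned positive under the scaling to genes with a mean of at least 100. Among the factors with a mean of at least 50, the ratio ran from the repressor *Bcl6* (585 and 176) to *Zmynd8* (108 and 102).

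**Figure D5:**
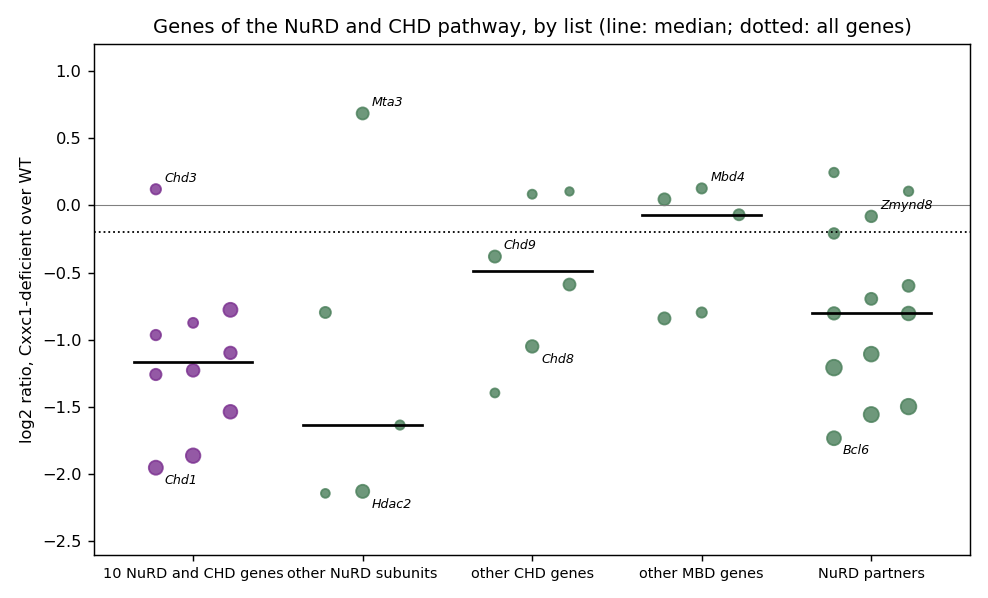
Log2 ratio of *Cxxc1*-deficient to WT for the 10 members (purple) and 4 lists of other genes of the pathway (green), with 1 point per gene, larger for higher mean values, a solid line at the median of each list and a dotted line at the median of all genes, -0.20. The medians are -1.16, -1.63, -0.49, -0.07 and -0.80 from left to right, on the deposited scale, and those of other CHD genes, other MBD genes and NuRD partners turn positive under some scalings, while *Mta3* is the highest labelled gene.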

How the data were processed

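RNA-seq of 2 samples was used, 1 WT and 1 *Cxxc1*-deficient library of DP thymocytes, grouped by title. The submitters' processing notes name CASAVA 1.8.2, Bowtie 1.0.1, Partek and mm9, and the authors kept uniquely mapped 50-base reads. Deposited values are a score, namely a normalized level of each gene that the authors rounded to whole numbers, with no unit named in the sources used here. They summed to 1551994 in the WT and 981677 in the deficient library.

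The worth of 1 read was estimated from short genes of 1 annotated length (150 to under 400 bases). In WT, 31 of 78 gave whole reads within rounding, or 39.7% against 7.88% that rounding allows, and in the deficient library 29 of 79, or 36.7% against 6.84%. Reads and intervals used the longest coding GENCODE vM1 transcript and are approximate. The threshold was 2-fold. Genes named were the 10 members, their paralogs, the lowest and highest ratio of each list among genes with a mean of at least 50, *Cxxc1*, *Cd4* and *Cd8a*, and others are marked. Some genes are not reported here. The members and lists were chosen with earlier results of these data known. Scripts were tested on simulated data. Alternatives were 4 scalings, subtraction of the olfactory receptor median, pseudocounts, thresholds, a filter on low values and the shortest transcript. The software was Python 3.11.15 with scipy 1.17.1, numpy 2.4.6, pandas 2.3.3 and, for figures, matplotlib 3.10.9.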

Additional observations from a re-analysis of the deposited data

How the results depend on the processing

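No paired analysis was possible because the design holds a single library of each genotype, and for the same reason none could be left out. Depth limits *Mbd3*, *Mta1* and *Chd3*, which rest on approximately 13 to 104 reads. In the deficient library *Rbbp4*, *Mta2* and *Mbd2* also rest on few reads, approximately 52, 71 and 96, against 97 for *Chd3*. With the shortest coding transcript, 7 rather than 8 member intervals lay below 1, and those of the ratios of *Chd3* to *Chd4*, *Chd1* to *Chd2* and *Chd1* to *Chd4* included 1. With the libraries scaled to the same 75th percentile, the same sum without the 100 highest genes and the same median of genes with a mean of at least 100, in that order, the members at least 2-fold lower numbered 3, 2 and 0, their median log2 ratio was -0.78, -0.60 and -0.17, all genes at least 2-fold lower numbered 1783, 1317 and 706, and those at least 2-fold higher 2417, 3468 and 7492. The median of the other MBD genes was then 0.32, 0.49 and 0.93. Under the last of these scalings, *Mta1* was at 0.031, *Mbd3* at 0.12 and *Gatad2b* at 0.22, and the list medians were 0.51 for other CHD genes, 0.19 for NuRD partners, 0.34 for other SNF2 ATPases and 0.20 for Sin3 and CoREST subunits, with 0.076 for other CHD genes under the sum. Subtracting the olfactory receptor median gave 8 members at least 2-fold lower, a member median of -1.71, 7527 genes lower and 3038 higher, and log2 changes in paralog ratio of -0.42 for *Mta1* to *Mta2*, 3.40 for *Rbbp4* to *Rbbp7* and -2.46 for *Hdac1* to *Hdac2*, the last 2 with a value at the floor of 1. A pseudocount of 10 gave 2312 lower and 465 higher genes, genes with a mean of at least 50 gave 2138 and 36, and at 3-fold 2 members were lower. The scalings multiply all genes of a library by 1 factor, and beyond that the cause was not tested.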

Other observations

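Of 19 ATPases of the SNF2 family outside the CHD group that were listed under the symbols searched, 14 had a lower and 5 a higher value in *Cxxc1*-deficient DP thymocytes, and 4 were at least 2-fold lower, with a median log2 ratio of -0.65. Of all genes, 59.9% were lower and 17.4% at least 2-fold lower, so the latter count is near the background. *Smarca2*, an ATPase of the SWI/SNF complex, had 433 in the WT and 150 in the deficient library, and *Rad54b*, a DNA repair ATPase, had 45 and 84. Of 17 subunits of the Sin3 and CoREST complexes, which also carry Hdac1 and Hdac2, all 17 had a lower value and 7 were at least 2-fold lower, with a median of -0.80. By level, 2 of 5 with a mean under 50 were at least 2-fold lower, against 9.75% of all genes there, and 0 of 5 from 50 to 100, against 20.0%. From 100 to 200, 3 of 5 were, against 50.1%, and 2 of 2 from 200 to 500 were, against 65.9%. *Sin3b*, a scaffold subunit, had 299 and 68, whereas *Sap18* had 55 and 52. Both medians turned positive under the scaling to an equal median of genes with a mean of at least 100.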
